A study of Homo sapiens with 6 samples.

Results

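The genes described are RRM1, RRM2, RRM2B, TYMS, TK1, DUT, DCTPP1, DCK and SAMHD1, which encode the subunits of ribonucleotide reductase and enzymes that make, recover or remove the building blocks of DNA. They were chosen by symbol, as a list of named genes, and each symbol was matched to its Ensembl gene identifier. All 9 were found among the 57905 genes counted, and all 9 were among the 16565 genes with enough counts to be tested.

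RNA-seq libraries were made from HCT116 cells, an established human colorectal carcinoma line with wild-type p53. Cells were given 10 µM Nutlin-3a, a small molecule that blocks the binding of p53 to its negative regulator MDM2, for 1 h (Nut 1h) or 10 h (Nut 10h), and control cells (Nut 0h) were given DMSO, in which Nutlin-3a was dissolved. With 2 biological replicates a condition there were 6 libraries. The paper made libraries at these times to explore what drives 2 waves of change in genome organization, early and late after p53 activation. All conditions share the same unmodified line and no library comes from cells without p53, so the results concern Nutlin-3a in 1 cell line. In bulk RNA, a change in RNA per cell and a change in the share of cells that hold the RNA cannot be told apart.

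Ribonucleotide reductase removes the 2′ hydroxyl group of ribonucleotides and so makes deoxyribonucleotides, the step that limits the supply of DNA precursors. The enzyme joins a large catalytic subunit, RRM1, with a small subunit that carries the radical, which is RRM2 in cycling cells or RRM2B, a small subunit encoded by a known p53 target gene. Around it, thymidylate synthase (TYMS) and thymidine kinase (TK1) supply thymidylate, deoxycytidine kinase (DCK) recovers deoxynucleosides, DUT and DCTPP1 hydrolyse dUTP and dCTP-like nucleotides, and SAMHD1 degrades deoxynucleoside triphosphates. Several of these genes are known to be transcribed mostly around S phase, and CCAAT boxes, bound by NF-Y, and E2F sites are common in such promoters.

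The promoters of 4 of the genes that were lower at Nut 10h are given below. Those of RRM2, TK1 and DCTPP1 are shown because the letters CCAAT occur in them more than once, and that of TYMS as 1 of 2 windows that hold a single match to the E2F letters. Each window holds 250 bases before and 50 bases after the start of the canonical transcript in GRCh37, read 5′ to 3′ on the strand of the gene. Capitals mark CCAAT (or ATTGG, the same letters on the other strand) in RRM2, TK1 and DCTPP1, and the E2F letters TTTCCCGC, on the other strand, in TYMS. The windows lie at chr2:10262616-10262915 (plus strand) for RRM2, chr17:76183084-76183383 (minus strand) for TK1, chr16:30441302-30441601 (minus strand) for DCTPP1 and chr18:657403-657702 (plus strand) for TYMS.
RRM2: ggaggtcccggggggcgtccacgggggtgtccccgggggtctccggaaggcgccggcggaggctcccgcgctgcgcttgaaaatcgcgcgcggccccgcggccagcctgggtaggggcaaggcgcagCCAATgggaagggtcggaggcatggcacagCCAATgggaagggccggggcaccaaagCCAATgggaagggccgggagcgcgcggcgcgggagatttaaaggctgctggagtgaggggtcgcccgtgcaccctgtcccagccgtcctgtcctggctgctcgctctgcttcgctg
TK1: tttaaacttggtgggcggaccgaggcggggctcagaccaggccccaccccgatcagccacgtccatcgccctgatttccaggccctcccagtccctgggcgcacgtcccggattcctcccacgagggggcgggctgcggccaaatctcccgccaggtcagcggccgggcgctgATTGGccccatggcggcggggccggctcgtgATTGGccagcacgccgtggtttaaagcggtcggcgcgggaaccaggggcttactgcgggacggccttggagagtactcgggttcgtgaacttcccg
DCTPP1: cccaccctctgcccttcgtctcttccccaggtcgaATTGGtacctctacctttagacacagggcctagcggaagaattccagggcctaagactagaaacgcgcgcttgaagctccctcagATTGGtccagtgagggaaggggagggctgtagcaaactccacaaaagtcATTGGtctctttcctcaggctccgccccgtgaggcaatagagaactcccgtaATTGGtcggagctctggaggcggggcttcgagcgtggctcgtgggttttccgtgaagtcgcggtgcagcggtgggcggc
TYMS: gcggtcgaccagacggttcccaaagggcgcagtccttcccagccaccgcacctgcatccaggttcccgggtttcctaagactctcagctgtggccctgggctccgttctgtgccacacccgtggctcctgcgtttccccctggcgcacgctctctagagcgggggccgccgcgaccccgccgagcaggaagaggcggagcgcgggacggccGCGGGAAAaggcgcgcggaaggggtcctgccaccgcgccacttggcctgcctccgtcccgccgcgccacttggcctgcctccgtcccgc

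The letters CCAAT were present 3 times in the RRM2 window, at positions −123, −93 and −66 from the start site, 2 times in the TK1 window, at −77 and −46, and 4 times in the DCTPP1 window, at −215, −130, −81 and −29. Over 19066 windows of protein-coding genes of the same length, 36.0% held CCAAT on either strand and 12.3% held it at least 2 times. RRM1 had 1 match, at −142, and SAMHD1 had 2, at −49 and −38. The E2F letters (TTTCCCGC, TTTGGCGC, TTTCGCGC or TTTGCCGC, either strand) were matched in TYMS, at −39, and in DCK, at +22, and in 4.32% of all windows. The letters TTTGAA of the CHR element were matched in none of the 9 windows and in 11.4% of all windows, and RRM2B and DUT held none of the 3 motifs. No match overlapped another. These are matches of letters, and binding was not measured in these libraries.

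Counts per library summed to between 26068076 and 35473485, and the 9 genes took 0.165% to 0.169% of the counts at Nut 0h and Nut 1h and 0.107% to 0.108% at Nut 10h. Replicates correlated at r = 0.997, 0.998 and 0.997 on the log2(CPM + 1) scale, in the order of time. MDM2 and CDKN1A, known p53 targets, were used as a check of the treatment. MDM2 rose from 1886 ± 279 normalized counts (SD, n = 2) to 8597 ± 137 after 1 h and 25289.6 ± 3756 after 10 h. The early rise of MDM2 was 2.19 on the log2 scale (edgeR adjusted p = 3.55e-08), or 1.49 (5.11e-10) with the offset for GC content described below. CDKN1A, the cell cycle inhibitor p21, had 9958 ± 949, 10282 ± 629 and 142606 ± 4136, a rise at Nut 10h (log2 fold change 3.84, edgeR adjusted p = 1.03e-10) and a value of 0.05 at Nut 1h (adjusted p = 0.704), which was 0.70 (3.04e-06) with that offset. Of the 6 epithelial markers checked, EPCAM, CDH1, KRT8, KRT18 and KRT19 were well expressed and VIL1 was near 0. At Nut 1h against Nut 0h, EPCAM (log2 fold change 0.46) and CDH1 (0.51) were called higher, and KRT8 (−0.71), KRT18 (−0.36) and KRT19 (−0.98) lower. At Nut 10h KRT19 was called higher (0.87) and EPCAM lower (−0.32). The part of these shifts in the results was not tested. Of the 6 markers of other cell types found, PTPRC, CD3E and ALB had at most 2 normalized counts in any library, COL1A2 reached 23.3 in 1 Nut 10h library, VWF averaged 11.8 to 20.4, and COL1A1 averaged 796 to 1364. COL1A1 differed between Nut 0h and Nut 1h, by −0.78 on the log2 scale (edgeR adjusted p = 1.13e-05), and its part in the results was not tested.

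Values below are normalized counts, that is, counts scaled to the mean effective (TMM) library size of the 6 libraries. Fold changes and p-values come from the edgeR quasi-likelihood fit of every tested gene, with Benjamini-Hochberg adjustment, and a gene was called at an adjusted p of at most 0.05. After 10 h, 7 of the 9 genes fell, RRM2B rose, and SAMHD1 was not called. Over all tested genes, 14.9% were called lower and 14.1% higher in this comparison. The 9 genes had a median log2 fold change of −0.75, and that of all tested genes was 0.00017. After 1 h, RRM1, RRM2, RRM2B, DCK and SAMHD1 were called higher and TYMS, TK1, DUT and DCTPP1 lower, against a background of 34.5% called higher and 32.3% called lower, with medians of 0.40 for the 9 genes and 0.05 for all. Both comparisons share the Nut 0h libraries. Mitochondrial genes took 4.99% and 6.18% of the counts with vehicle, 8.44% and 8.15% after 1 h, and 6.45% and 7.06% after 10 h, and the part of this shift in the results was not tested.

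**Figure D1:**
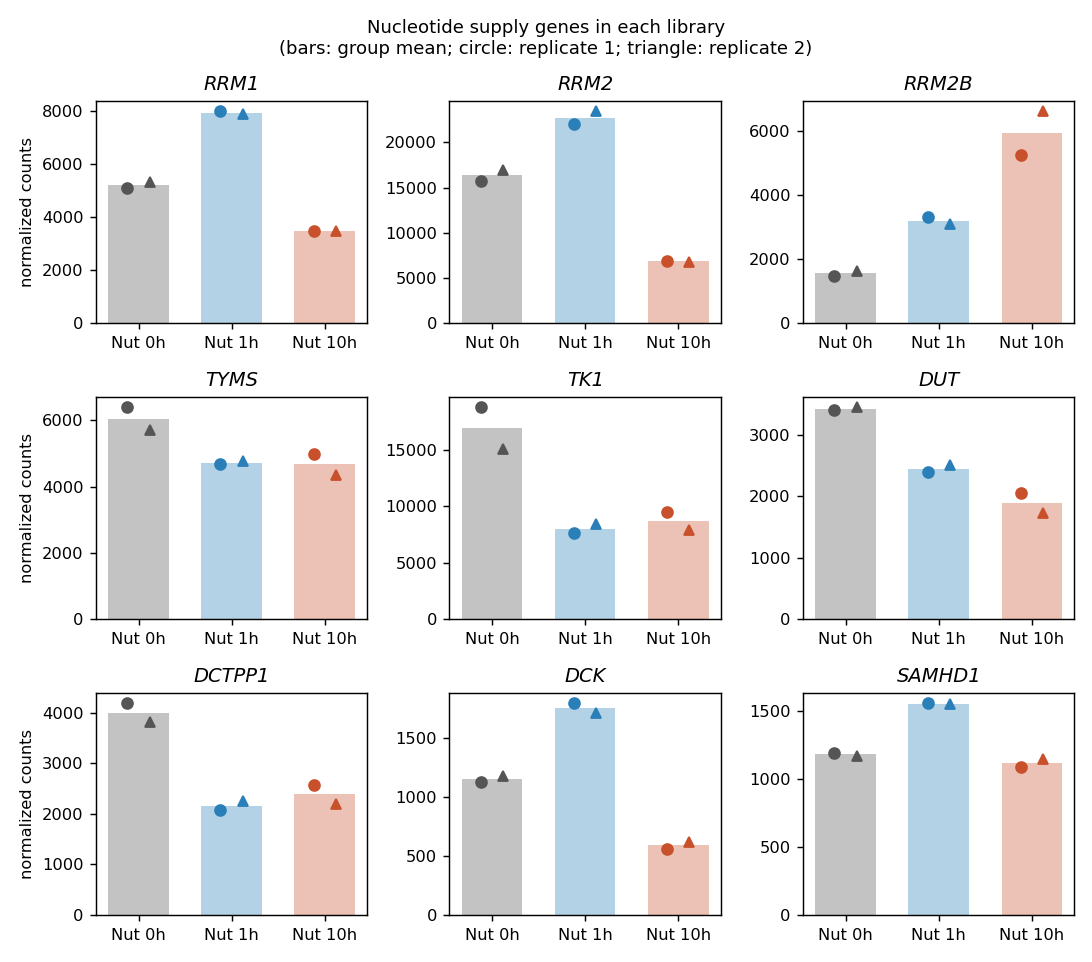
Normalized counts (vertical axis, from 0, one scale per gene) of the 9 genes in each library at Nut 0h (grey), Nut 1h (blue) and Nut 10h (red), where bars are group means, circles replicate 1 and triangles replicate 2. RRM2B was highest in both Nut 10h libraries, RRM1, RRM2, DCK and SAMHD1 were highest at Nut 1h, and TYMS, TK1, DUT and DCTPP1 were highest at Nut 0h.

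RRM1, the large subunit (ENSG00000167325, chr11:4115937-4160162, plus strand), had 5089 and 5333 normalized counts with vehicle, 8001 and 7886 after 1 h, and 3475 and 3493 after 10 h. The 3 conditions did not overlap, with Nut 1h highest and Nut 10h lowest. The log2 fold change was −0.58 ± 0.09 (SE) at Nut 10h against Nut 0h (edgeR adjusted p = 0.000202) and 0.61 ± 0.09 at Nut 1h against Nut 0h (3.17e-05). With an offset for the GC content of the transcript, described below with the base composition, the Nut 1h value was 0.12 and was not called (edgeR adjusted p = 0.189). From Nut 1h to Nut 10h RRM1 fell by 1.19 on the log2 scale (edgeR adjusted p = 6.04e-08). That difference was −0.73 (edgeR adjusted p = 9.19e-08) with the GC-content offset and −0.65 (1.21e-07) with GC content from the canonical transcript.

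RRM2, the small subunit of cycling cells (ENSG00000171848, chr2:10260825-10351851, plus strand), showed the largest fall at Nut 10h among the 9 genes. Its values were 15703 and 16974 with vehicle, 22041 and 23430.0 after 1 h, and 6914 and 6794 after 10 h. Both Nut 10h libraries were below every other library, and both Nut 1h libraries were above them. The change was −1.25 ± 0.09 on the log2 scale at Nut 10h (edgeR adjusted p = 1.87e-07), which is 0.42 of the Nut 0h level, and 0.48 ± 0.09 at Nut 1h (0.000384). The Nut 1h value with the GC-content offset was 0.14 (edgeR adjusted p = 0.141), and −0.11 (0.255) with GC content taken from the canonical transcript. Between Nut 1h and Nut 10h the difference was −1.73 (edgeR adjusted p = 3.42e-09). It was −1.44 (edgeR adjusted p = 4.03e-11) with the GC-content offset and −1.16 (2.11e-10) with GC content from the canonical transcript.

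RRM2B, the p53-inducible small subunit (ENSG00000048392, chr8:103216730-103251189, minus strand), was the gene that moved the other way. It had 1480 and 1626 normalized counts with vehicle, 3306 and 3086 after 1 h, and 5247 and 6622 after 10 h. Every Nut 10h library was above every Nut 1h library, and every Nut 1h library was above every Nut 0h library. The rise at Nut 10h was 3.82-fold (log2 fold change 1.93 ± 0.12, edgeR adjusted p = 2.62e-08), and the step from Nut 1h to Nut 10h was 0.89 (8.58e-06). At Nut 1h the log2 fold change was 1.04 ± 0.12 (edgeR adjusted p = 3.16e-06). The transcript of RRM2B is the most AT-rich of the 9, with 35.1% GC, and with an offset for GC content the Nut 1h value was 0.11 and was not called (adjusted p = 0.222), whereas the Nut 10h value was 1.89 and was called.

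The small subunits were compared per kilobase of the canonical transcript, since their transcripts differ in length (3258 bases for RRM2 and 4774 for RRM2B). RRM2B made up 6.04% and 6.14% of the small subunit RNA, RRM2 plus RRM2B, with vehicle, 9.29% and 8.25% after 1 h, and 34.1% and 39.9% after 10 h. The shares at Nut 10h were above those of all other libraries. The RRM2 to RRM2B ratio went from 15.5 and 15.3 with vehicle to 9.77 and 11.1 after 1 h and 1.93 and 1.50 after 10 h. The sum of both small subunits was 5130 and 5551 normalized counts per kilobase with vehicle, 7458 and 7838 after 1 h, and 3221 and 3472 after 10 h. Against RRM1 per kilobase, the sum was 3.17 and 3.27 with vehicle, 2.93 and 3.12 after 1 h, and 2.91 and 3.12 after 10 h, so the libraries of Nut 1h and Nut 10h overlapped. With 2 libraries a condition, an exact permutation test of these ratios between 2 conditions cannot reach 0.05, and they are given as values without a test. These values hold no correction for GC content. In the fits with the GC-content offset, RRM2 and RRM2B were at 0.14 and 0.11 at Nut 1h, so that the early shift in the ratio was not seen there. At Nut 10h they were at −1.30 and 1.89. With GC content from the canonical transcript they were at −0.11 and 0.07 at Nut 1h, and neither was called. These 2 values have the direction of the early shift without an offset. The share depends on the length used: with no division by length the averages were 8.68%, 12.3% and 46.3% in the order of time, and with the length of all exons joined, 13.9%, 19.3% and 59.3%, where the annotation includes a long RRM2 gene model (9153 bases of exons). Protein was not measured here.

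**Figure D2:**
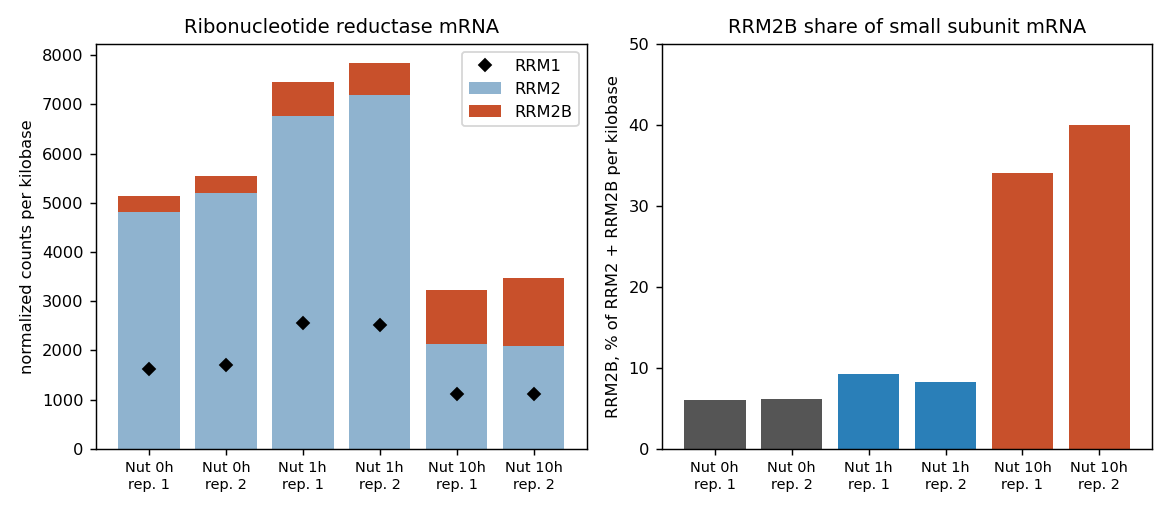
Left, normalized counts per kilobase of RRM2 (blue) and RRM2B (red) stacked, with RRM1 as black diamonds, in each of the 6 libraries. Right, the RRM2B share of RRM2 plus RRM2B per kilobase in percent, which was 6.04% to 9.29% in the Nut 0h and Nut 1h libraries and 34.1% and 39.9% in the Nut 10h libraries.

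Of the thymidylate enzymes, TK1, which phosphorylates thymidine in S phase cells (ENSG00000167900, chr17:76170172-76183314, minus strand), had 18754 and 15075 normalized counts with vehicle, 7640 and 8378 after 1 h, and 9484 and 7896 after 10 h. Both treated conditions were below both Nut 0h libraries and overlapped each other. The fitted log2 change was −1.08 ± 0.12 at Nut 1h (edgeR adjusted p = 3.59e-06) and −0.96 ± 0.12 at Nut 10h (3.69e-05), and 0.12 between Nut 1h and Nut 10h (0.398). TK1 has the highest GC content of the 9, 62.8%, and the Nut 1h value with the GC-content offset was −0.02 (edgeR adjusted p = 0.877), or −0.25 (0.0146) when GC content was taken from the canonical transcript.

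TYMS, which makes thymidylate from deoxyuridylate (ENSG00000176890, chr18:657653-673578, plus strand), had 6393 and 5704 normalized counts with vehicle, 4676 and 4764 after 1 h, and 4986 and 4350 after 10 h. The treated libraries were all below the Nut 0h libraries. The changes were the smallest called at Nut 10h among the 9, with log2 fold changes of −0.36 ± 0.10 at Nut 1h (edgeR adjusted p = 0.00575) and −0.37 ± 0.10 at Nut 10h (0.0117). Both calls depended on single libraries. Without Nut 0h replicate 1 the values were −0.28 at Nut 1h (edgeR adjusted p = 0.0707) and −0.29 at Nut 10h (0.127). Without Nut 1h replicate 1 the early value was −0.34 (edgeR adjusted p = 0.0689), and without Nut 10h replicate 2 the late value was −0.26 (0.132). TYMS overlaps ENOSF1 and TYMSOS on the other strand, and whether strand was used in counting is not given in the sources used here. The same limit holds for RRM1 (RRM1-AS1), RRM2 (MIR4261 and SNORA2, both outside its canonical transcript), DUT (DUT-AS1), DCTPP1 (ZNF771) and SAMHD1 (TLDC2), which overlap the genes in brackets on the other strand, and DCK overlaps MOB1B on its own strand.

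DUT, which removes dUTP (ENSG00000128951, chr15:48623208-48635570, plus strand), had 3405 and 3447 normalized counts with vehicle, 2389 and 2506 after 1 h, and 2051 and 1722 after 10 h. The 3 conditions did not overlap and went down with time. On the log2 scale the change was −0.49 ± 0.10 at Nut 1h (edgeR adjusted p = 0.000662) and −0.86 ± 0.10 at Nut 10h (1.83e-05). Under the GC-content offset the Nut 1h value was −0.94 (edgeR adjusted p = 3.86e-07), nearly the Nut 10h value of −0.89. The step from Nut 1h to Nut 10h, −0.38 (edgeR adjusted p = 0.00447), was lost with that offset (0.05, adjusted p = 0.690), without the second Nut 1h library (−0.34, 0.0626) and without the second Nut 10h library (−0.20, 0.141).

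DCTPP1, which hydrolyses dCTP and its modified forms (ENSG00000179958, chr16:30434936-30441351, minus strand), had 4192 and 3817 normalized counts with vehicle, 2070 and 2260 after 1 h, and 2571 and 2200 after 10 h. All treated libraries were below the Nut 0h libraries, and Nut 1h and Nut 10h overlapped. The log2 difference was −0.89 ± 0.10 at Nut 1h (edgeR adjusted p = 4.95e-06) and −0.75 ± 0.10 at Nut 10h (8.56e-05). Under the GC-content offset the early fall was −0.42 (edgeR adjusted p = 0.000202). The difference between Nut 1h and Nut 10h was 0.14 (edgeR adjusted p = 0.244). It was called higher without Nut 10h replicate 2 (0.30, adjusted p = 0.0298) and lower with the offset (−0.35, 0.000743).

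DCK, the kinase of deoxycytidine salvage (ENSG00000156136, chr4:71858255-71896631, plus strand), followed the course of RRM1 and RRM2. It had 1131 and 1181 normalized counts with vehicle, 1797 and 1717 after 1 h, and 559 and 621 after 10 h. The conditions did not overlap, and the Nut 10h level was 0.51 of that at Nut 0h (log2 fold change −0.97 ± 0.10, edgeR adjusted p = 5.89e-06). At Nut 1h the value was 0.60 ± 0.10 (edgeR adjusted p = 8.66e-05), and it turned to −0.18 (0.0577) with the GC-content offset and to −0.35 (0.000776) with GC content from the canonical transcript.

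SAMHD1, the deoxynucleotide triphosphohydrolase (ENSG00000101347, chr20:35518632-35580296, minus strand), had 1192 and 1171 normalized counts with vehicle, 1558 and 1552 after 1 h, and 1085 and 1149 after 10 h. Both Nut 10h libraries were just below both Nut 0h libraries, and the log2 fold change of −0.08 ± 0.09 was not called (edgeR adjusted p = 0.562). The rise at Nut 1h was 0.40 ± 0.09 (edgeR adjusted p = 0.00187). With the GC-content offset it was −0.04 and was not called (edgeR adjusted p = 0.699).

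**Figure D3:**
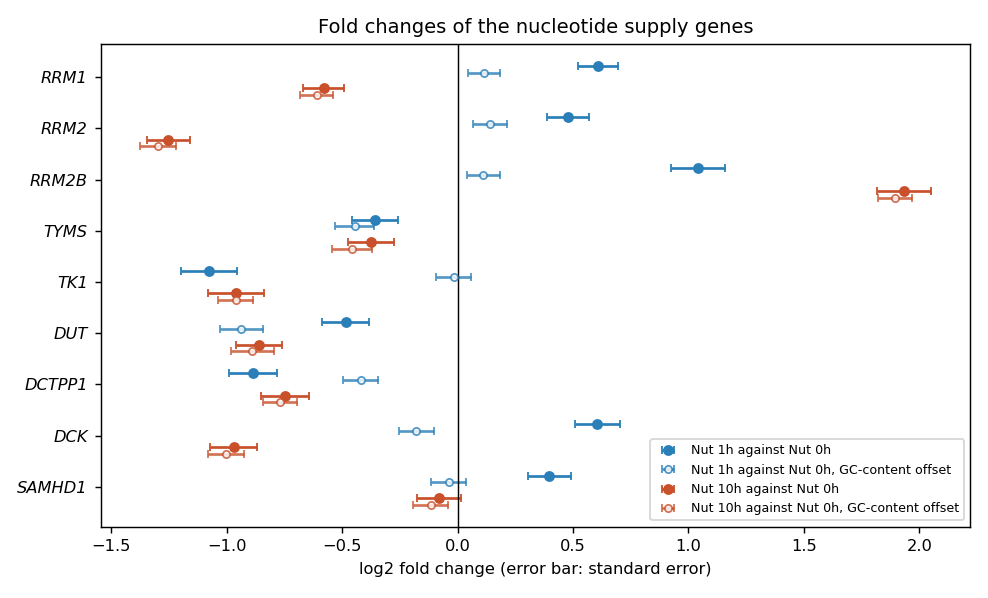
Log2 fold change (horizontal axis, error bars standard error) of each gene at Nut 1h (blue) and Nut 10h (red) against Nut 0h, as fitted (filled) and with the GC-content offset (open). The filled and open points lie close together at Nut 10h, while at Nut 1h RRM2B goes from 1.04 to 0.11 and TK1 from −1.08 to −0.02.

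The rises at Nut 1h moved with base composition. Across the tested genes with a GC content, 97.4% of all tested, the log2 fold change correlated with the GC content of the longest transcript at r = −0.69 for Nut 1h against Nut 0h, −0.03 for Nut 10h against Nut 0h and 0.61 for Nut 10h against Nut 1h. Genes are not independent replicates, and these correlations are descriptions. The 5 genes called higher at Nut 1h have 35.1% (RRM2B), 37.8% (DCK), 43.5% (RRM1), 44.4% (SAMHD1) and 45.8% (RRM2) GC. Of the 4 called lower, DUT lies within that range at 44.1%, and TYMS (48.9%), DCTPP1 (55.5%) and TK1 (62.8%) lie above it. With a smooth offset for GC content, 0 of the 9 genes were called higher and 3 were called lower at Nut 1h, namely TYMS, DUT and DCTPP1, where 20.0% of all tested genes were called higher and 25.3% lower. With GC content from the canonical transcript, an alternative added after the data were seen, 0 were called higher and 5 lower, TK1 and DCK in addition, against 19.8% and 24.9% of all tested genes. Either offset left each of the 8 calls at Nut 10h against Nut 0h in place, against backgrounds of 16.6% higher and 22.5% lower with the longest transcript and 17.2% and 23.0% with the canonical one.

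**Figure D4:**
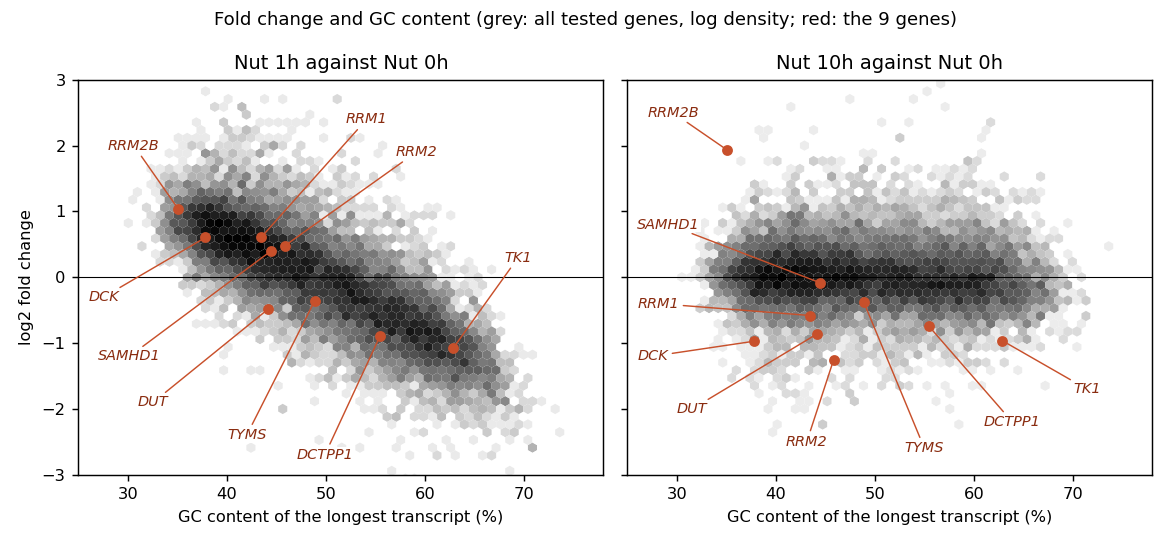
Log2 fold change (vertical axis) against the GC content of the longest transcript in percent (horizontal axis) for all tested genes (grey, darker with more genes) and the 9 genes (red) at Nut 1h (left) and Nut 10h (right) against Nut 0h. At Nut 1h the cloud slopes down (r = −0.69) and most of the 9 genes lie within it, with DUT toward its lower edge, and at Nut 10h it is flat (r = −0.03) and RRM2B lies above it.

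Between Nut 1h and Nut 10h, RRM2B rose and RRM1, RRM2, DUT, DCK and SAMHD1 fell, while TYMS, TK1 and DCTPP1 were not called. In this comparison 34.2% of all tested genes were called higher and 33.7% lower, and the medians were −0.38 for the 9 genes and −0.02 for all. DCK fell by 1.57 on the log2 scale (edgeR adjusted p = 1.53e-08) and SAMHD1 by 0.48 (0.000432). With the GC-content offset DCK was at −0.82 (edgeR adjusted p = 6.46e-08), TK1 at −0.95 (1.11e-08) and RRM2B at 1.78. SAMHD1 was at −0.08 with it (edgeR adjusted p = 0.396), or −0.19 (0.0355) with GC content from the canonical transcript, where DCK was at −0.66.

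Levels of the 9 genes were put in order per kilobase of the canonical transcript. At Nut 0h the order was TK1 with 11820 ± 1818 normalized counts per kilobase, RRM2 with 5015 ± 276, TYMS with 3750 ± 302, DCTPP1 with 3391 ± 224, RRM1 with 1658 ± 55.0, DUT with 1600.3 ± 13.9, DCK with 461 ± 14.3, RRM2B with 325 ± 21.6 and SAMHD1 with 254 ± 3.26. The libraries of TYMS and DCTPP1 overlapped, and those of RRM1 lay just above those of DUT. At Nut 10h TK1 was still first with 6073 ± 785, followed by TYMS with 2894 ± 279, RRM2 with 2104 ± 26.1 and DCTPP1 with 2020 ± 222. RRM2B stood next with 1243 ± 204, overlapping RRM1 with 1109 ± 4.21, and above DUT with 881 (958 and 805 in the 2 libraries). SAMHD1 with 240 ± 9.81 and DCK with 235 ± 17.5 were last and overlapped. RRM2 and DCTPP1 also overlapped, whereas RRM2B moved from the next to last place to the fifth.

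Genes with the most similar course were sought among 11575 genes by Pearson correlation of log2(CPM + 1) over the 6 libraries. With 3 conditions and 2 libraries in each, many genes reach a high r, and the values are a description. For RRM2B the closest were STAT2 (r = 0.997), MBD5, NCOA4, GPRC5A and ASCC3, all higher at Nut 1h and Nut 10h but by less than RRM2B, with 1.11 at Nut 10h for ASCC3 and 0.55 for NCOA4. For RRM2 they were CKAP2L (r = 0.999), RFC4, NDC80, NUSAP1 and OAS3, with log2 fold changes at Nut 10h from −2.04 (CKAP2L) to −0.76 (OAS3). For SAMHD1 they were FCF1, SUGT1, SUB1, GNAI3 and PHAX, whose log2 fold changes at Nut 10h ran from −0.13 (FCF1) to −0.20 (PHAX). At Nut 1h theirs ran from 0.57 (FCF1) to 0.79 (SUGT1). The correlations and fold changes of these similar genes hold no correction for GC content.

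The other genes of nucleotide metabolism were taken from fixed lists. Of 73 genes listed, 72 were found and 71 tested, and NME2 had 0 counts in every library. Strand and multimapping settings of the counting are not given, so 0 counts do not show that NME2 RNA was absent. At Nut 10h against Nut 0h, 7 (9.86%) were called higher, 23 (32.4%) lower and 41 not called, against 14.1% and 14.9% of all tested genes, with a median log2 fold change of −0.17. At Nut 1h, 25 (35.2%) were called higher and 29 (40.8%) lower, against 34.5% and 32.3%, with a median of −0.06. Under the GC-content offset these counts were 16 (22.5%) and 19 (26.8%), against 20.0% and 25.3%, which is close to the background. The early counts of the single lists below are without this offset. Without 1 library at a time, the 7 called higher at Nut 10h became 4 to 6, with 4 when the second Nut 0h library was left out, and the 23 called lower became 17 to 20. Under the GC-content offset 31 (43.7%) were called lower at Nut 10h, against 22.5% of all tested genes, and with GC content from canonical transcripts 33 (46.5%), against 23.0%.

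Purine synthesis had the most genes called lower at Nut 10h, 7 of 13, with 1 higher, against 14.9% and 14.1% of all tested genes. IMPDH1, a form of the rate-limiting dehydrogenase of guanine nucleotide synthesis, fell from 7146 ± 1118 to 4293 ± 379 (log2 fold change −0.74, edgeR adjusted p = 0.000226). IMPDH2, another form of this enzyme with higher counts, had 19868 ± 693 and 19293 ± 1154. It was not called (−0.04, edgeR adjusted p = 0.776). PRPS2, which makes phosphoribosyl pyrophosphate, was at −0.65 (9.78e-05) and GMPS, which makes GMP, at −0.61 (0.000178) by edgeR adjusted p. At Nut 1h, 6 of the 13 were called higher and 3 lower, against 34.5% and 32.3% of all tested genes. PRPS2 and GMPS were among those called higher, at 0.26 and 0.42 (edgeR adjusted p = 0.0211 and 0.00107), and with the GC-content offset both were called lower, at −0.29 and −0.25 (0.00558 and 0.00600). The early PRPS2 call was also lost with DESeq2 (adjusted p = 0.0543) and without a low-count filter (edgeR adjusted p = 0.121). It was lost too without any 1 of the Nut 0h or Nut 1h libraries (log2 fold change 0.22 to 0.27). IMPDH1 was at −1.08 at Nut 1h, or −0.11 (edgeR adjusted p = 0.258) with the offset. Of 5 pyrimidine synthesis genes, CAD, the enzyme of the first steps, was the gene called lower at Nut 10h (−0.45, edgeR adjusted p = 0.00145), and 0 were called higher. These counts stand against the same 14.9% and 14.1% of all tested genes. CTPS2, which makes CTP, was at 0.54 at Nut 1h (edgeR adjusted p = 0.000493) and −0.19 at Nut 10h (0.220). Its early call was lost with the GC-content offset (0.15, edgeR adjusted p = 0.173).

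Of 11 nucleotide kinases tested, 3 were called lower and 1 higher at Nut 10h, against 14.9% and 14.1% of all tested genes. DTYMK, which phosphorylates the thymidylate made by TYMS and TK1, fell from 2804 ± 143 to 1436 ± 180 (log2 fold change −0.97, edgeR adjusted p = 7.86e-06). AK1, an adenylate kinase, rose from 255 ± 27.4 to 462 ± 3.08 (0.86, 0.000123 by edgeR), while at Nut 1h it was at −0.89, or −0.25 and not called with the GC-content offset (0.121). NME4, a mitochondrial nucleoside diphosphate kinase, was at −0.42 (edgeR adjusted p = 0.0230), a call lost without either Nut 1h library, without the first Nut 0h library (−0.23, 0.277) and without the second Nut 10h library (−0.26, 0.142). NME3, of the same family, was at −2.03 at Nut 1h (edgeR adjusted p = 1.37e-07), or −0.40 (0.000618) with the GC-content offset and −0.76 with GC content from the canonical transcript. At Nut 10h it was at −0.26 and not called, though it was called without the first Nut 10h library (−0.51, edgeR adjusted p = 0.00122), without a low-count filter (−0.30, 0.0349) and with GC content from the canonical transcript (−0.23, 0.0201).

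In the folate cycle, which gives TYMS its methyl donor, 3 of 9 genes fell and 1 rose at Nut 10h. Of all tested genes, 14.9% were called lower and 14.1% higher in this comparison. SHMT1, a serine hydroxymethyltransferase, fell from 2230.0 ± 43.1 to 1185 ± 98.4 at Nut 10h (−0.91, edgeR adjusted p = 6.22e-06) and was at −0.13 at Nut 1h, which was not called. MTHFD1, which interconverts folate one-carbon units, was at −0.42 at Nut 10h (edgeR adjusted p = 0.00264).

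Of 14 salvage genes, 3 were called lower and 1 higher at Nut 10h, against 14.9% and 14.1% of all tested genes, and 8 lower and 3 higher at Nut 1h, against 32.3% and 34.5%. UCK1, a uridine kinase, was at −0.63 (edgeR adjusted p = 0.000685) and UPP1, a uridine phosphorylase, at −0.49 (0.00338) at Nut 10h, and ADA, adenosine deaminase, was at 0.32 (0.0318). The ADA call was lost with DESeq2 (0.0691), without a low-count filter, in a fit of the 2 conditions alone, and without any library but the second of Nut 10h (edgeR adjusted p from 0.0622 to 0.173). CDA, cytidine deaminase, was at −1.31 at Nut 1h (edgeR adjusted p = 4.03e-06), or −0.78 with the GC-content offset. Of 13 genes of breakdown and pool cleaning, 3 fell and 2 rose at Nut 10h. NUDT1, which hydrolyses oxidized purine triphosphates, was at −0.66 (edgeR adjusted p = 0.000663), NT5M, a mitochondrial nucleotidase, at −0.56 (0.0161), and NUDT16 at 0.48 (0.00239). The NT5M call was lost without the first Nut 0h library (−0.43, edgeR adjusted p = 0.0845) and without the second Nut 10h library (−0.37, 0.121). Of 6 transporters, 3 fell and 1 rose at Nut 10h, among them SLC25A33 (−0.28, edgeR adjusted p = 0.0399), SLC29A2 (−0.27, 0.0367) and SLC29A3 (0.44, 0.0111). The calls of SLC25A33 and SLC29A2 were lost without any 1 of the 6 libraries, with upper-quartile or total-count normalization, and in a fit of the 2 conditions alone, and that of SLC25A33 also with DESeq2 (adjusted p = 0.0549). SLC29A2, an equilibrative nucleoside transporter, was at −1.22 at Nut 1h (edgeR adjusted p = 1.97e-07), or −0.34 with the GC-content offset.

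**Figure D5:**
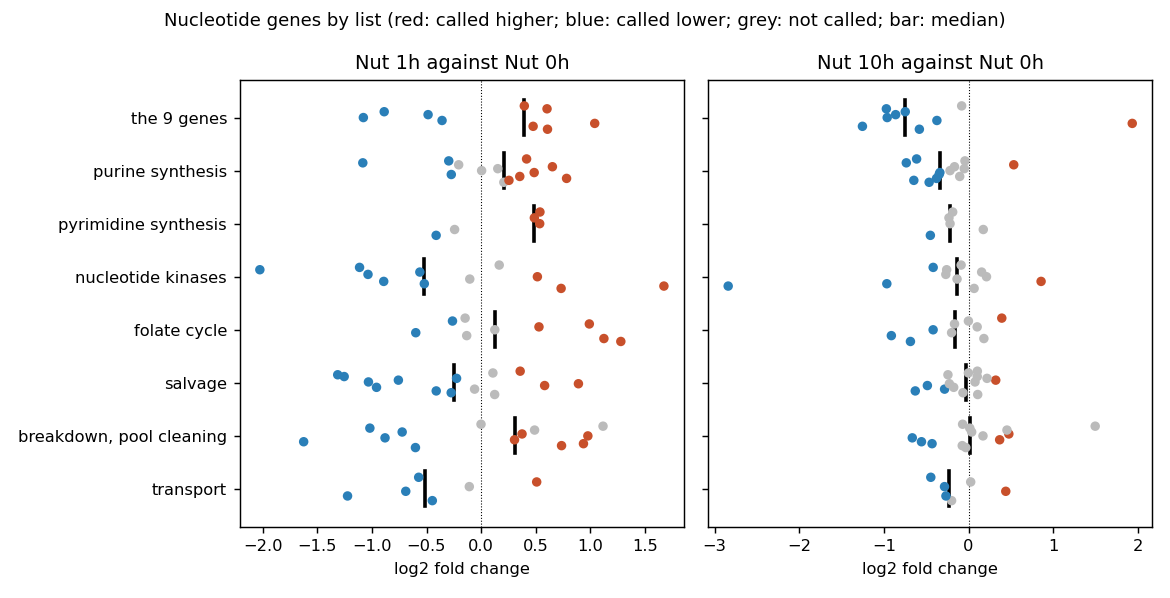
Log2 fold change (horizontal axis) of each tested gene of the 9 and of the 7 other nucleotide lists (rows) at Nut 1h (left) and Nut 10h (right) against Nut 0h, coloured by call, with a bar at the median of each list. The 9 genes have the lowest median at Nut 10h, −0.75, and each other list but breakdown and pool cleaning has a median below 0 there.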

How the data were processed

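The authors trimmed paired-end reads with Trim Galore 0.6.6, aligned them to GRCh37.p13 with STAR 2.7.0f and counted them per gene with featureCounts (Subread 2.0.0). The deposited matrix holds these raw counts. Strand and multimapping settings are not given in the sources used here. A second deposited table holds the authors' own fold changes and p-values, which were not used. It gave symbols only. The 9 genes and the lists were chosen with earlier results of these data known.

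Counts of the 57905 genes passed filterByExpr for 16565 genes, were TMM-normalized and were tested by quasi-likelihood in R 4.3.3 with edgeR 4.0.16 and limma 3.58.1, fitted on condition alone over all 6 libraries, which leaves 3 residual degrees of freedom. P-values were adjusted by Benjamini-Hochberg. Standard errors came from the fold change and the F statistic. The GC-content offset was a loess trend (span 0.4) of each library on the GC content of the longest transcript. GENCODE v44 lifted to GRCh37 gave positions, transcripts and promoters. Of the 9 promoters, 4 are printed. DESeq2 1.42.0, limma-voom, other filters and normalizations, a fold-change minimum, a replicate block and leaving out each library were alternatives. Lengths of all exons joined and GC content of the canonical transcript were chosen after seeing the data.

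Beyond the 9 genes, the up to 3 largest called changes at Nut 10h and the largest at Nut 1h of each list were named, at a mean of at least 100 normalized counts. IMPDH2 was given beside IMPDH1 outside this rule. CDKN1A, MDM2 and the cell markers served as checks, and the 5 most similar genes were named for RRM2B, RRM2 and SAMHD1. Of the genes this rule names, 2 are not reported here.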

Additional observations from a re-analysis of the deposited data

How the results depend on the processing

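At Nut 10h against Nut 0h, each of the 9 genes kept its direction and its call under the other normalizations, filters, tools, designs and offsets. Leaving out 1 library at a time left each direction in place, TYMS being the call lost. Same-number deviations correlated at −0.31 (Nut 0h and Nut 1h), 0.45 (Nut 0h and Nut 10h) and −0.28 (Nut 1h and Nut 10h). The replicate numbers thus did not pair the libraries across all 3 conditions. A replicate block left 5 of the 9 genes called higher and 4 lower at Nut 1h, against 34.2% and 32.1% of all tested genes. It left 1 higher and 7 lower at Nut 10h, against 14.3% and 15.2%. From Nut 1h to Nut 10h it left 1 higher and 5 lower, against 34.0% and 33.5%. The early results depended on the GC-content offset, and the cause was not tested. At Nut 1h the offset left 0 of the 9 genes called higher, also with the block or with canonical transcripts. Of all tested genes, 20.0%, 19.1% and 19.8% were called higher in these fits, and 25.3%, 24.3% and 24.9% lower. The other nucleotide genes called higher at Nut 1h were 16, or 15 with the block and 16 with canonical transcripts, and those called lower were 19, 19 and 16. From Nut 1h to Nut 10h, 16, 15 and 16 of them were called higher, against 25 without an offset. The lower calls there went from 28 to 31 with the offset, where 29.0% of all tested genes were called higher and 28.8% lower. With the offset, with the block in addition, and with canonical transcripts, the log2 fold changes at Nut 1h that changed sign were −0.18, −0.18 and −0.35 (DCK), −0.29, −0.29 and −0.31 (PRPS2), −0.25, −0.25 and −0.27 (GMPS), 0.22, 0.22 and 0.19 (CAD), 0.24, 0.23 and 0.093 (DTYMK), −0.074, −0.075 and −0.014 (MTHFD1), and 0.24, 0.24 and 0.24 (UCK1). SAMHD1 (−0.039 and −0.039) and SHMT1 (0.090 and 0.090) did so with the first pair, and RRM2 (−0.11) with canonical transcripts. From Nut 1h to Nut 10h, in the same order, they were −0.95, −0.95 and −0.73 (TK1), 0.047, 0.041 and 0.072 (DUT), −0.35, −0.35 and −0.30 (DCTPP1), −0.64, −0.64 and −0.63 (IMPDH1), −0.19, −0.20 and −0.28 (NME4), −0.53, −0.53 and −0.64 (NUDT1), −0.22, −0.22 and −0.18 (NT5M), and 0.11, 0.11 and 0.12 (SLC25A33). TYMS, near 0 there, was at 0.010 with canonical transcripts and 0.0022 with RLE normalization or DESeq2. Leaving out 1 library at a time, it ran from −0.079 to 0.13 and CAD from −0.057 to 0.030, both highest without the second Nut 10h library, and CDKN1A at Nut 1h ran from −0.059 to 0.14. A minimum absolute log2 fold change of 1 left 1 of the 9 genes higher and 1 lower at Nut 1h. It left RRM2B higher and 1 gene lower at Nut 10h, and 0 higher and 3 lower from Nut 1h to Nut 10h. It left 3 higher and 10 lower, 0 and 1, and 9 and 8 of the other nucleotide genes, and 10.1% and 13.9%, 3.74% and 3.11%, and 16.4% and 12.3% of all tested genes. Leaving out 1 library at a time gave 1 to 2 of the 9 genes called higher from Nut 1h to Nut 10h and 4 to 6 of the others called higher at Nut 10h. The RRM2B share was 8.68%, 12.3% and 46.3% with no division by length and 13.9%, 19.3% and 59.3% with all exons joined, the latter chosen after seeing the data. With 2 libraries a condition, p-values rest on a spread estimated with 3 residual degrees of freedom and shared across genes.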

Other observations

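CMPK2, a mitochondrial nucleoside monophosphate kinase, was too low to be named by the rule and was picked after its values were seen. It had 9.66 and 12.2 normalized counts with vehicle, 34.1 and 36.5 after 1 h, and 1.93 and 0.931 after 10 h. The conditions did not overlap, and the fitted log2 change was 1.67 ± 0.38 at Nut 1h (edgeR adjusted p = 0.00146) and −2.84 ± 0.68 at Nut 10h (0.00606), the latter from 1 to 2 reads a library.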
